A study of Mus musculus with 6 samples.

Results

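Replication-dependent histone genes encode the bulk of the histone protein that packages newly copied DNA. The members described here were all rows of the deposited table whose symbol starts with Hist1h, Hist2h, Hist3h or Hist4h, with symbols ending in -ps left out, which gave 68 of 24493 gene symbols. By class these were 6 genes of the linker histone H1, 19 of H2A, 18 of H2B, 12 of H3 and 13 of H4. The libraries were mRNA-seq of mouse cells labelled Treg (regulatory T cells), made in culture from naïve CD4 T cells of the spleen. There were 3 libraries of the genotype Ifnar1-SA, an altered allele of the gene for a type I interferon receptor subunit, whose change the labels do not describe, and 3 of the genotype WT. The labels give no further allele, treatment, sex or age, and nothing in them says that replicates were separate mice or separate cultures. The p-values below therefore measure only the spread between these libraries, which may be technical.

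In each nucleosome, DNA is wrapped around a core of H2A and H2B dimers and an H3 and H4 tetramer, and H1 binds the DNA between cores. The genes of this family are switched on as cells enter S phase, and most lie in clusters and lack introns. Their mRNAs typically end in a conserved stem-loop and not in a poly(A) tail. SLBP binds the stem-loop, and the U7 small nuclear RNP directs the cut just downstream of it, so that the stem-loop stays as the end of the mature mRNA. The same element is needed to degrade the mRNA when replication stops. Some of these genes can also be read through to a polyadenylated form, above all in cells that have stopped dividing. The labels do not say whether poly(A) selection was used.

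The stem-loop is shown because it is the feature that sets these mRNAs apart and because it was not used to choose the members. In the GENCODE M21 transcript models it was found in 46 of the 68 members, as a stem of 6 bases per arm around a loop of 4 bases. Of the other 22, most have models that hold little beyond the coding sequence, but Hist2h2be (2620 bases), Hist1h2br (2197), Hist1h2bq (2015) and Hist1h2bc (1156) have longer ones. No match says only that these letters were not found in the model. The form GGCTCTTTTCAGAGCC stood in 26 members, of the classes H1, H2A, H2B and H3. The form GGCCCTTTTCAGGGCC stood in 7 members, all of them H4 genes, and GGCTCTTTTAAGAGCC in 6 members of H1, H2B and H3. Examples are printed below in DNA letters with up to 5 bases on each side, and the capitals mark the 2 arms of the stem.
Hist1h2ap: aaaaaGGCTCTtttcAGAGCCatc
Hist1h2ao: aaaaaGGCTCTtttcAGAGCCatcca
Hist1h2bj: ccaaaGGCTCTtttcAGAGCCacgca
Hist1h3c: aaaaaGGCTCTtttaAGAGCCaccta
Hist1h4d: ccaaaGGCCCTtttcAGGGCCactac
Hist3h2ba: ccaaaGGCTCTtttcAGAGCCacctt

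Promoters are shown for the dominant H2A pair, for the members of highest mean in the H2B and H4 classes, and for the member of smallest p. RefSeq entries with a promoter sequence (GRCm38.p6) were matched for 62 members. CCAAT, the box bound by NF-Y, was searched on both strands (reverse ATTGG) in the 250 bases before the RefSeq start and was present in 82.3% of the 62 promoters, against 34.5% of 27025 promoters of all genes. It stood in all 6 H1, 18 H2A and 16 H2B promoters, in 80% of 10 H3 promoters and in 25% of 12 H4 promoters. TATAAA (reverse TTTATA), the TATA box, was found in 46.8% of member promoters, against 12.97% of all promoters. The octamer ATTTGCAT (reverse ATGCAAAT), a motif for OCT1, was found in 20.97% of member promoters, against 1.61% of all promoters. Its 13 member promoters were 7 of H2A and 6 of H2B genes. Within the 120 bases nearest the start it stood in Hist1h2bb, Hist1h2bg, Hist1h2bk, Hist1h2bm and Hist2h2bb, and among H2A genes only in Hist3h2a. Neighbouring H2A and H2B genes that point away from each other lay 175 to 305 bases apart. Their 250-base windows can therefore overlap, and a site can be counted for both genes. No motif of the 3 contains another, and a match is a description of the letters and not of binding. The 120 bases before the RefSeq start are given 5′ to 3′, with matches in capitals. RefSeq and GENCODE starts differ. The GENCODE model of Hist1h2ap begins inside this window, at base 21833507, and that of Hist1h2ao begins beyond its window, at base 21810465. The Hist1h2ao window ends with the letters that open the Hist1h2ap window. The windows of the pair are therefore shifted against each other, and their motif positions cannot be compared. The windows are chr13:21833476-21833595 (minus strand) for Hist1h2ap, chr13:21810247-21810366 (plus) for Hist1h2ao, chr13:22043078-22043197 (plus) for Hist1h2bj, chr13:23581448-23581567 (plus) for Hist1h4d and chr11:58948791-58948910 (plus) for Hist3h2ba.
Hist1h2ap: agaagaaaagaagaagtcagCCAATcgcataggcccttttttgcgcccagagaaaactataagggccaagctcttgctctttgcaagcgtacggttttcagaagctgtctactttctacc
Hist1h2ao: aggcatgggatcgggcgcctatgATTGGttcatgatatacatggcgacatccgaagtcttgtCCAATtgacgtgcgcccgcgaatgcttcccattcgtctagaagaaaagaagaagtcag
Hist1h2bj: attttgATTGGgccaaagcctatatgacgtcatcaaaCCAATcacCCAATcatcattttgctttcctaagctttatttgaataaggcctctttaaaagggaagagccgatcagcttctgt
Hist1h4d: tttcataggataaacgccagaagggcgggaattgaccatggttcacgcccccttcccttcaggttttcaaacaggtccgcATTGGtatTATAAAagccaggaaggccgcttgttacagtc
Hist3h2ba: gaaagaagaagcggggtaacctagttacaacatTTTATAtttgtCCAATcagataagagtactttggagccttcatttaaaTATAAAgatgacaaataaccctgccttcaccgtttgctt

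Values are TPM, a length-corrected share of the transcripts of a library, and are listed in the order of libraries 1, 2 and 3 of a genotype. TPM keeps no depth, so no counting error can be given. Between 21925 and 22958 symbols were above 0 in a library, and no 2 of the 6 libraries held identical values. Ifnar1 itself had 28.0, 25.3 and 21.8 TPM in Ifnar1-SA, against 24.0, 41.9 and 27.3 TPM in WT, a transcript level that does not test an altered protein sequence. Of the markers of the labelled cell type, Cd4 was at 108 to 124 TPM, Cd3e at 90.2 to 123 TPM and the receptor chain Il2ra at 359 to 444 TPM, whereas Foxp3, the transcription factor that defines regulatory T cells, was at only 0.276 to 1.82 TPM. Of the other genes on the Treg list of 8, Ikzf2 was at 0.792 to 1.97 TPM, Lrrc32 at 1.1 to 2.73 TPM and Itgae at 0.669 to 1.42 TPM. Ctla4 was at 482 to 876 TPM, Tnfrsf18 at 2371 to 3238 TPM and Il10 at 135 to 344 TPM. The summed level of 7 T cell markers, of which 6 were in the table, was 1932 to 2163 TPM in Ifnar1-SA and 1799.5 to 1892 TPM in WT. Macrophage, B cell and erythroid lists summed to at most 13.6 TPM in any library. The CD8 T and NK list summed to 1677 to 2496 TPM in Ifnar1-SA and 915 to 2685 TPM in WT, nearly all of it Nkg7, at 896 to 2672 TPM. Cd8a was at 1.55 to 4.26 TPM and Klrd1, Ncr1 and Klrb1c under 1 TPM. The neutrophil and mast cell list summed to 17.1 to 22.6 TPM in Ifnar1-SA and 7.34 to 10.5 TPM in WT, mostly Ly6g, while S100a8 was at 0 to 0.504 TPM. The part of other cells in the results below was not tested. The Y-linked gene Eif2s3y was at 0 in WT 3 and at 10.9 to 23.2 TPM in the other libraries. WT 3 may therefore come from another animal than WT 1 and WT 2. The part of sex in the results below was not tested. Ifnar1-SA 1 and WT 2 stood apart from the other libraries in some short transcripts: the small RNA Rn4.5s had 2978, 14249 and 17829.9 TPM in Ifnar1-SA, against 20882, 3846 and 15183 TPM in WT, and Rps29, a ribosomal protein, had 2619, 8652 and 8530.3 TPM, against 8021, 3486 and 9981 TPM.

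Histone transcripts were abundant in both genotypes and did not separate them. The 68 members together had 5725, 6896 and 6307 TPM in Ifnar1-SA, against 8679, 4990.2 and 5608 TPM in WT. The mean was 6309 ± 585 TPM in Ifnar1-SA and 6426 ± 1976 TPM in WT (SD, n = 3 each), a ratio of 0.982, or 1.03 with median-of-ratios scaling. The highest and the lowest library were both WT, so the genotypes overlapped completely. Members made up between 0.499% and 0.868% of a library's TPM. Leaving out WT 1 gave a ratio of 1.19, and leaving out WT 2 a ratio of 0.883.

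The family was dominated by a pair of near-identical H2A genes. Hist1h2ap lies on chr13:21833026-21833507 (minus strand) and Hist1h2ao on chr13:21810465-21810944 (plus strand), both as single protein-coding exons in GENCODE M21 of GRCm38. Hist1h2ap had 2261, 3543 and 3093 TPM in Ifnar1-SA, against 4665, 2145 and 2861 TPM in WT. Hist1h2ao had 2427, 2079 and 1909 TPM in Ifnar1-SA, against 2592, 2094 and 1668 TPM in WT. For both genes WT 1 was the highest library, and the genotypes overlapped. Together they made up 82.0% of the members' sum, with 4688, 5623 and 5002 TPM in Ifnar1-SA and 7258, 4238 and 4529 TPM in WT. The log2 difference, Ifnar1-SA minus WT on log2(TPM + 1), was −0.07 (SE 0.31) for Hist1h2ap and 0.03 (SE 0.20) for Hist1h2ao, both with a limma adjusted p of 0.9997.

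**Figure D1:**
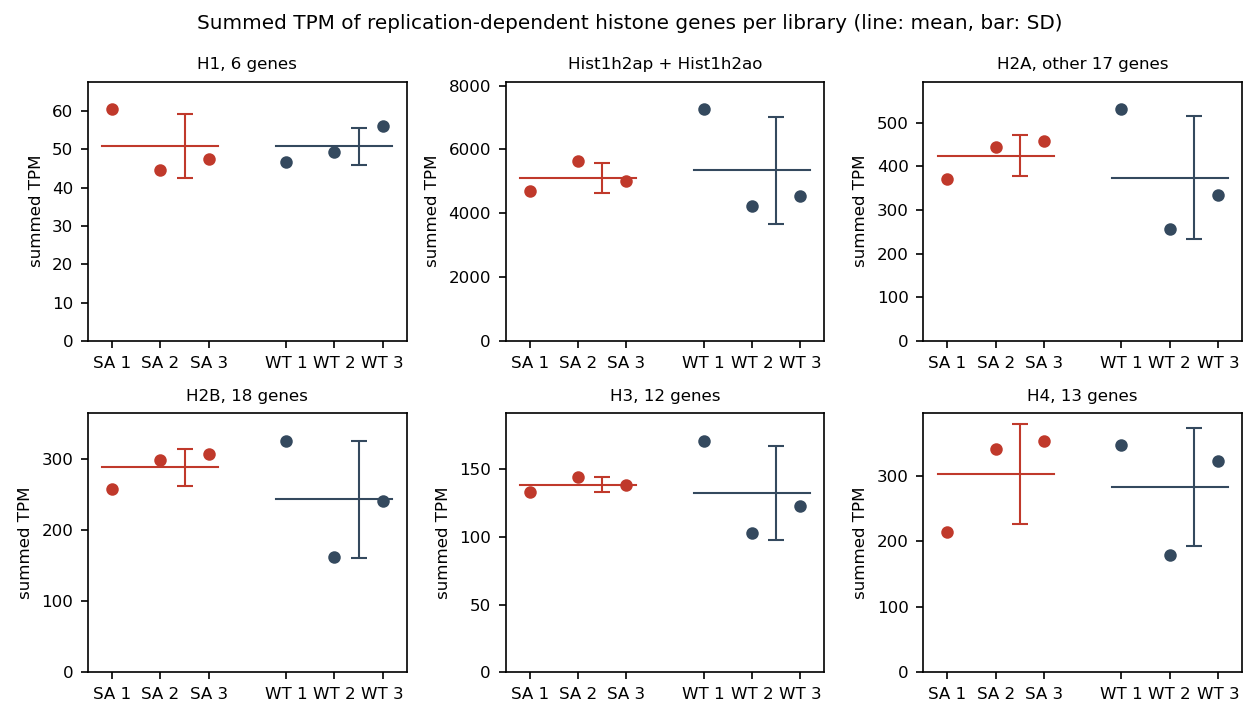
Summed TPM of each histone class in every library (vertical axes, linear from 0; red points Ifnar1-SA, dark points WT), with the pair Hist1h2ap and Hist1h2ao drawn apart from the other 17 H2A genes; horizontal lines are genotype means and bars 1 SD (n = 3). In every panel but H1, WT 2 is the lowest point, and the H2A, H2B and H3 panels have WT 1 as the highest.

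The level of the other members ran over several orders of magnitude. Hist2h3c1 was listed at 0 in all 6 libraries and 9 members had a mean above 0 but under 1 TPM. A mean of 1 to 10 TPM was held by 28 members, 10 to 100 TPM by 27, and 1 member, Hist1h4d, lay above 100 TPM next to the H2A pair above 1000 TPM. Over all libraries, 22 of the 408 member values were 0, and 61 members were above 0 in every library. Most signal came from the 55 genes with a Hist1 symbol, all on chromosome 13, which held 97.9% of the sum. The 10 genes of Hist2 on chromosome 3 held 1.78%. Of the Hist1 genes, Hist1h2al lies far from the others, at chr13:51202727-51203065, and is counted with them by its symbol only.

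Of the 6 H1 members, Hist1h1c, Hist1h1e and Hist1h1d had the highest levels. H1f0, a linker histone on the replacement list below, was higher, with 113, 83.5 and 91.9 TPM in Ifnar1-SA against 113, 104 and 101 TPM in WT. Hist1h1c had 19.5, 14.4 and 18.9 TPM in Ifnar1-SA, against 14.1, 16.3 and 19.9 TPM in WT. Hist1h1e had 15.7, 13.1 and 12.7 TPM in Ifnar1-SA, against 14.7, 17.3 and 20.1 TPM in WT, and Hist1h1d had 12.7, 7.43 and 7.96 TPM, against 8.90, 8.61 and 8.64 TPM. The genotypes overlapped for each of the 3. Hist1h1b, of the widest range in its class, had 11.9, 9.75 and 7.83 TPM in Ifnar1-SA, against 8.84, 6.83 and 7.21 TPM in WT. Hist1h1t, a linker histone of the testis, was listed at 0 in 4 libraries, with 0.0498 TPM in Ifnar1-SA 1 and 0.0988 TPM in WT 2. The 6 H1 genes summed to 60.5, 44.7 and 47.6 TPM in Ifnar1-SA, against 46.7, 49.4 and 56.2 TPM in WT, and H1 was the class that varied least.

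Apart from the dominant pair, the 17 other H2A genes summed to 371, 444 and 459 TPM in Ifnar1-SA, against 531, 257 and 336 TPM in WT. Hist1h2ag, next in the class, had 86.3, 91.9 and 99.4 TPM in Ifnar1-SA, which lie inside the WT values of 142, 57.8 and 67.9 TPM. Hist1h2an had the widest range, with 13.4, 24.1 and 21.2 TPM in Ifnar1-SA against 16.6, 5.07 and 12.8 TPM in WT. Its lowest library, WT 2, was far under the rest. Hist3h2a, in the small Hist3 cluster on chromosome 11, had 14.2, 14.1 and 19.0 TPM in Ifnar1-SA against 19.9, 16.5 and 17.1 TPM in WT. Hist1h2aa, which is known from the germ line, was low, with 0.239, 0.334 and 0.730 TPM in Ifnar1-SA against 0.499, 0.829 and 1.05 TPM in WT (two-sided exact permutation p = 0.2, where 3 against 3 libraries cannot go below 0.1).

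H2B, the partner of H2A in its dimer, summed to 259, 299 and 308 TPM in Ifnar1-SA, against 326, 163 and 242 TPM in WT. Hist1h2bj led with 71.6, 80.9 and 89.9 TPM in Ifnar1-SA, against 94.7, 37.1 and 62.8 TPM in WT. Hist1h2br had 61.3, 82.2 and 68.1 TPM in Ifnar1-SA, against 83.6, 39.1 and 52.6 TPM in WT. In both, the WT libraries enclosed the Ifnar1-SA libraries. Hist1h2bc did not follow that order, with 26.3, 25.2 and 42.3 TPM in Ifnar1-SA and 23.2, 25.3 and 37.9 TPM in WT. The testis gene Hist1h2ba was above 0 in 2 libraries only, at 0.222 TPM in Ifnar1-SA 2 and 0.237 TPM in WT 1. Many H2A and H2B genes are arranged head to head on a shared promoter region, and 12 such pairs lay within 500 bases. Neighbours could differ widely in level: Hist1h2ap averaged 3095 TPM over the 6 libraries and its neighbour Hist1h2br, 235 bases away, 64.5 TPM. The neighbour of Hist1h2ao, Hist1h2bq, shares 98.3% of its words with Hist1h2br, so its own level of 1.71 TPM is uncertain. By contrast Hist1h2ag and Hist1h2bj, 269 bases apart, averaged 90.9 and 72.8 TPM.

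H3 and H4 form the inner tetramer of the nucleosome. The 12 H3 genes summed to 133, 144 and 139 TPM in Ifnar1-SA, against 171, 103 and 123 TPM in WT. Hist2h3b had 24.8, 29.8 and 29.8 TPM in Ifnar1-SA, against 37.4, 20.4 and 29.99 TPM in WT. Hist1h3i behaved likewise, with 30.9, 27.003 and 26.2 TPM in Ifnar1-SA and 36.8, 23.3 and 24.96 TPM in WT, so that in both genes WT gave the highest and the lowest library. Hist1h3c was the steadiest member of all those above 0 throughout, with 18.1, 21.3 and 20.2 TPM in Ifnar1-SA and 19.2, 18.2 and 17.2 TPM in WT. Hist1h3b had the widest range of the class, with 6.49, 9.65 and 6.47 TPM in Ifnar1-SA against 10.9, 1.73 and 4.49 TPM in WT.

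The 13 H4 genes summed to 214, 340.2 and 353 TPM in Ifnar1-SA, against 346, 179 and 322 TPM in WT. Here Ifnar1-SA 1 was low together with WT 2. Hist1h4d led the class with 84.3, 139.7 and 128 TPM in Ifnar1-SA, against 162, 66.7 and 119 TPM in WT. Hist1h4c had 32.8, 54.0 and 75.3 TPM in Ifnar1-SA, against 61.5, 23.6 and 52.1 TPM in WT. Hist1h4i was steadier, with 39.5, 44.8 and 46.2 TPM in Ifnar1-SA and 44.5, 46.1 and 57.6 TPM in WT. Hist4h4, the single gene of cluster Hist4 on chromosome 6, was the tested member of lowest mean, with 1.15, 1.94 and 2.04 TPM in Ifnar1-SA against 2.55, 0.632 and 1.08 TPM in WT.

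Near-identical copies limit what single values can show. The coding sequences of 5 pairs were identical, among them Hist1h2ap and Hist1h2ao over 390 bases and Hist1h4m and Hist1h4n over 309 bases. Hist1h2ao shared 93.8% of its 31-base words with Hist1h2ap, and the median member had 41.3% of its words to itself. Fewer than 50% of words were their own in 41 members, and 0 in Hist2h2aa2 and Hist2h3c1. The split of the H2A pair followed the libraries and not the genotype. Hist1h2ap received 48.2%, 63.0% and 61.8% of the pair's sum in Ifnar1-SA, against 64.3%, 50.6% and 63.2% in WT. Both low shares were in Ifnar1-SA 1 and WT 2. Hist1h4n was listed at 0 in these same libraries, with 0, 19.0 and 12.9 TPM in Ifnar1-SA against 13.7, 0 and 11.8 TPM in WT. Its copy Hist1h4m had 25.9, 28.7 and 37.3 TPM in Ifnar1-SA and 20.3, 19.5 and 30.9 TPM in WT. The sum of the H4 pair was lowest in the same libraries, with 25.9, 47.8 and 50.2 TPM in Ifnar1-SA against 34.1, 19.5 and 42.8 TPM in WT. The part that the assignment of shared reads has in these values was not tested, and single members of such pairs are uncertain. In addition, 7 members overlap another gene on their own strand and 22 one on the other strand, and no label gives the strand setting of the quantification.

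**Figure D2:**
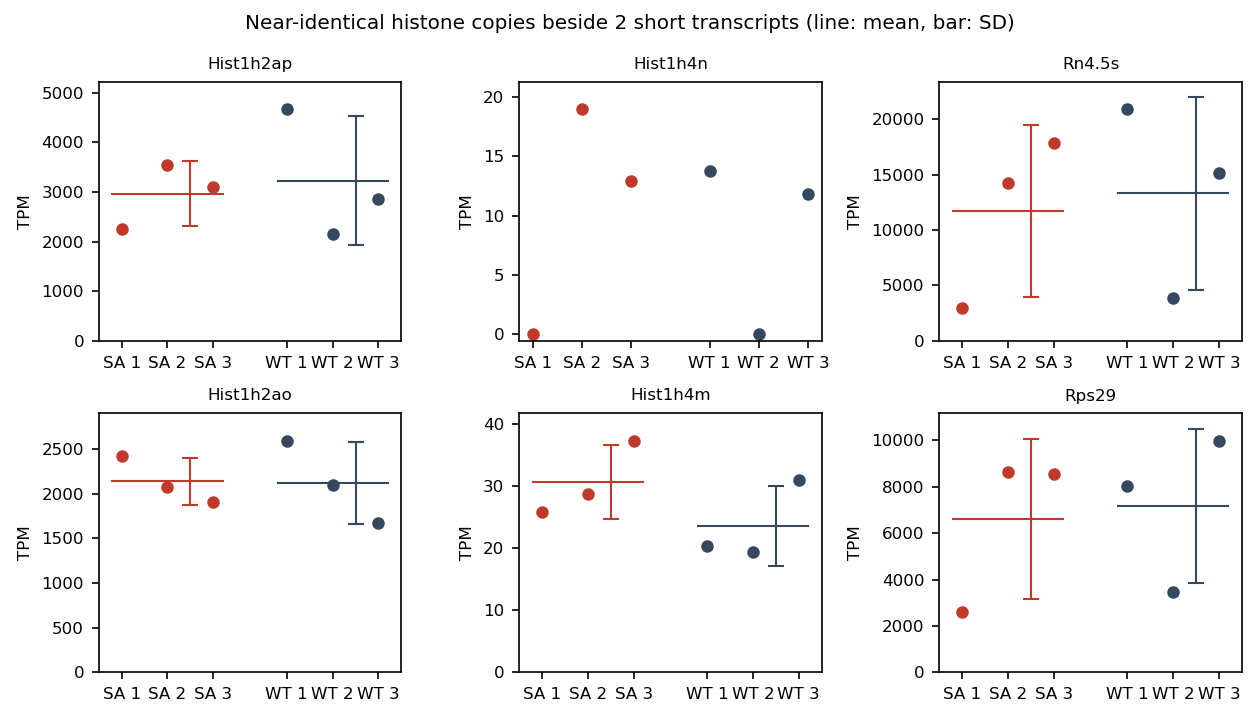
TPM in each library of the copies Hist1h2ap and Hist1h2ao, the copies Hist1h4n and Hist1h4m, and the short transcripts Rn4.5s and Rps29 (vertical axes linear; red Ifnar1-SA, dark WT; lines are genotype means and bars 1 SD, n = 3, not drawn for Hist1h4n with its values at 0). Ifnar1-SA 1 and WT 2 are the lowest libraries of their genotypes for Hist1h2ap, Hist1h4n, Rn4.5s and Rps29, and Hist1h4n is at 0 in both. Rn4.5s and Rps29 were chosen after their values were seen. In WT 2 the median log2 deviation of other tested genes from their own mean was 0.42 under 600 bases. At 600 to 1000 bases it was −0.07.

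For the comparison of genotypes, 58 members passed the filter of a mean of at least 1 TPM, from Hist4h4 with a mean of 1.57 TPM, while Hist1h3f with 0.999 TPM and 9 others fell under it. The test asks whether the altered receptor chain goes with a difference in histone transcripts. By limma with Benjamini-Hochberg adjustment over 12141 genes, 0 of 58 members had an adjusted p under 0.05 (lowest adjusted p 0.9997), against 7 of all genes, or 0.0577%. Of all genes, 0.0165% were higher and 0.0412% lower in Ifnar1-SA at that threshold, and of the members 0 in either direction. Those 7 genes were all microRNA genes listed at 0 throughout one genotype. At an unadjusted p under 0.05 there were 3 members (5.17%), against 379 of all genes (3.12%). Of the 3, 2 were higher in Ifnar1-SA (1.44% of all genes were) and 1 lower (1.68% of all genes). The libraries of the genotypes did not overlap for 2 members (3.45%), against 5.77% of all genes. Hist1h2ah was the member without overlap that was higher (1.97% of all genes were) and Hist3h2ba the one that was lower (3.8% of all genes). The count of members at an unadjusted p under 0.05 depended on WT 1: without that library it was 17 (28.8% of members, 16 of them higher in Ifnar1-SA, against 6.96% of all genes), with 0 past the adjusted threshold. With array weights it was 10 (17.2%, against 10.2% of all genes), and with median-of-ratios scaling 1 (1.72%, against 3.94%). Without WT 2 the count was 1, Hist3h2ba (1.69%, against 2.03% of all genes). Without Ifnar1-SA 3 it was again Hist3h2ba alone (1.72%, against 1.69%). Without Ifnar1-SA 1 it was Hist1h4k alone (1.69%, against 4.45%), which was not among the 3 members above. On data simulated for this comparison over 12141 genes, the same fit recovered 38.1% of genes changed 2-fold and 86.6% of those changed 4-fold. The changed genes were drawn from all genes with a mean log2(TPM + 1) above 2. The median SD within a genotype was 0.25 for all genes and 0.41 for the members. These rates are therefore not those of the histone genes, which were not measured.

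Hist3h2ba, an H2B gene of cluster Hist3, had the smallest p. It had 2.005, 3.08 and 2.44 TPM in Ifnar1-SA, against 3.85, 4.14 and 7.09 TPM in WT, with no overlap. The log2 difference was −0.75 (SE 0.24, unadjusted p = 0.0166, limma adjusted p = 0.9997). Hist1h2ah, an H2A gene, had 4.88, 3.70 and 4.797 TPM in Ifnar1-SA, against 3.65, 1.84 and 2.32 TPM in WT. Its lowest Ifnar1-SA library stood just above the highest WT library, and the log2 difference was 0.62 (SE 0.22, unadjusted p = 0.0263, limma adjusted p = 0.9997). Hist1h2bh, an H2B gene, had 3.72, 4.62 and 5.19 TPM in Ifnar1-SA, against 4.20, 1.15 and 1.66 TPM in WT. WT 1 fell inside the Ifnar1-SA range, and the log2 difference was 0.82 (SE 0.33, unadjusted p = 0.0426, limma adjusted p = 0.9997). Hist1h2bf had the widest fold between libraries, with 2.16, 0.341 and 4.75 TPM in Ifnar1-SA against 3.58, 1.36 and 1.26 TPM in WT.

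Across the 58 members the log2 differences ran over −0.75 to 0.82 with a median of 0.19, and 44 lay above 0 and 14 below (50 and 8 with median-of-ratios scaling), none past the adjusted threshold. The median over all 12141 genes was −0.06, with 4499 above 0 and 7642 below. The members' median rested on WT 2: without that library it was −0.02, with 28 members above 0 and 31 below. Without WT 1 it was 0.35. By class the median was 0.06 for H1, 0.16 for H2A, 0.26 for H2B, 0.12 for H3 and 0.20 for H4. The members share sequence and libraries, so these medians are given without a test.

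**Figure D3:**
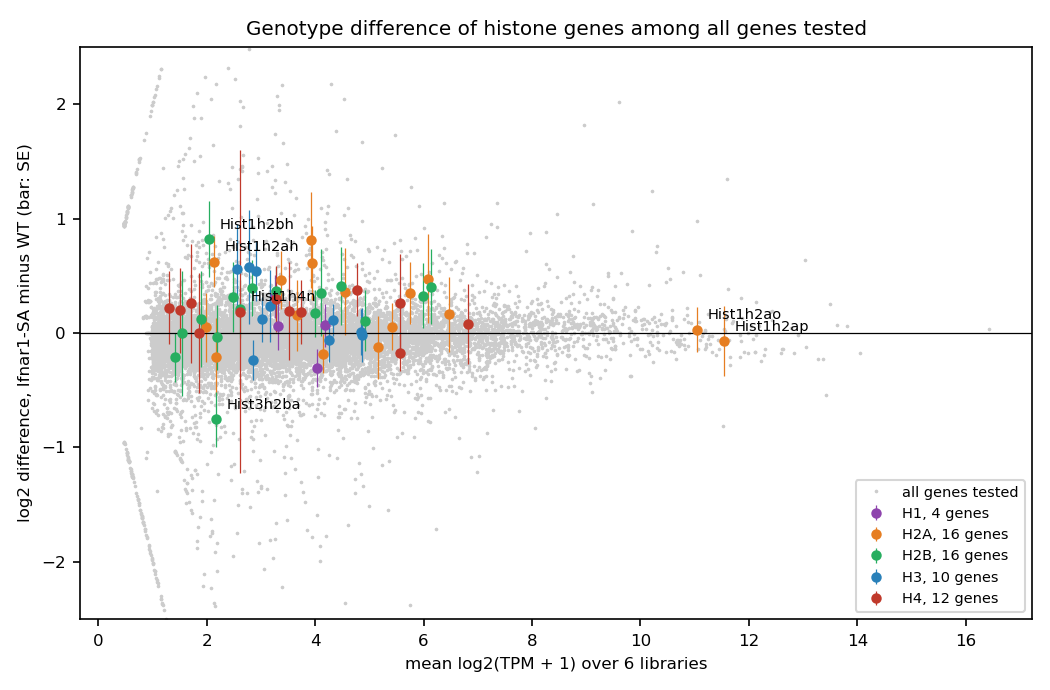
Log2 difference of each tested gene, Ifnar1-SA minus WT on log2(TPM + 1), against its mean log2(TPM + 1) over 6 libraries; grey points are all 12141 genes tested (those beyond 2.5 in size are not shown), coloured points the 58 histone genes by class, and bars 1 SE. The histone genes lie between −0.75 (Hist3h2ba) and 0.82 (Hist1h2bh), and Hist1h4n has the longest bar.

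The libraries differed more than the genotypes did. The median SD of log2(TPM + 1) within a genotype was 0.41 for the 58 members and 0.25 for all genes tested. This spread was wider in WT: the median SD of members was 0.22 within Ifnar1-SA and 0.51 within WT, whereas for all genes it was 0.23 within either genotype. The SD was larger in WT for 47 of 58 members (81.0%), against 51.1% of all genes. By class the median SD within genotype was 0.23 for H1, 0.45 for H2A, 0.41 for H2B, 0.29 for H3 and 0.54 for H4. Among the 61 members above 0 in every library, the highest library exceeded the lowest by a median of 2.41-fold, from 1.24-fold for Hist1h3c to 13.9-fold for Hist1h2bf, and by at least 2-fold in 42. The members' median SD was 0.27 without WT 1 and 0.33 without WT 2, against 0.24 for all genes in either case.

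WT 2 held the lowest value of the 6 libraries for 36 of 58 members (62.1%), although it held the lowest value for only 6.95% of all genes and the highest for 37.0%. These 36 were 1 of 4 H1, 11 of 16 H2A, 10 of 16 H2B, 6 of 10 H3 and 8 of 12 H4 genes. WT 1 held the highest value for 27 members (46.6%), against 13.8% of all genes. The median deviation of members from their own mean was −0.00, 0.17 and 0.19 in Ifnar1-SA and 0.34, −0.56 and −0.08 in WT, on the log2 scale. The same median over all genes was 0.17, −0.11 and −0.14 in Ifnar1-SA and 0.00, 0.15 and −0.07 in WT, so WT 2 was low for histones while its median over all genes was above 0. H4 genes showed the low Ifnar1-SA 1 most, with −0.42, 0.28 and 0.37 in Ifnar1-SA and 0.26, −0.66 and 0.22 in WT. Of the tested members, Hist1h2al and Hist1h2bq were highest in WT 2. Hist1h2bq is a copy of Hist1h2br with 1.74% of its words to itself, and the sum of that pair was lowest in WT 2, with 62.6, 83.8 and 69.7 TPM in Ifnar1-SA against 84.9, 41.7 and 54.5 TPM in WT. Hist1h2al, a processed pseudogene in GENCODE M21, had 4.51, 2.93 and 2.41 TPM in Ifnar1-SA, against 2.23, 6.52 and 3.67 TPM in WT. Rn4.5s and Rps29, given above, were low in Ifnar1-SA 1 and WT 2 as well. In WT 2 the median deviation was 0.42 over 978 other tested genes whose longest GENCODE model was under 600 bases. Over the 32 members of that length it was −0.58. In Ifnar1-SA 1 both medians were 0.03. For models of 600 to 1000 bases, 556 other genes had medians of −0.07 in WT 2 and 0.02 in Ifnar1-SA 1. The 11 members of that length had −0.29 and −0.12. Over 8228 other genes of at least 2000 bases the medians were 0.17 and 0.18. The genes under 600 bases were not split into small RNA genes and mRNAs. The part of transcript length or library preparation in these patterns was not tested. In these bulk samples, fewer cells in S phase and less histone RNA per cell cannot be told apart.

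**Figure D4:**
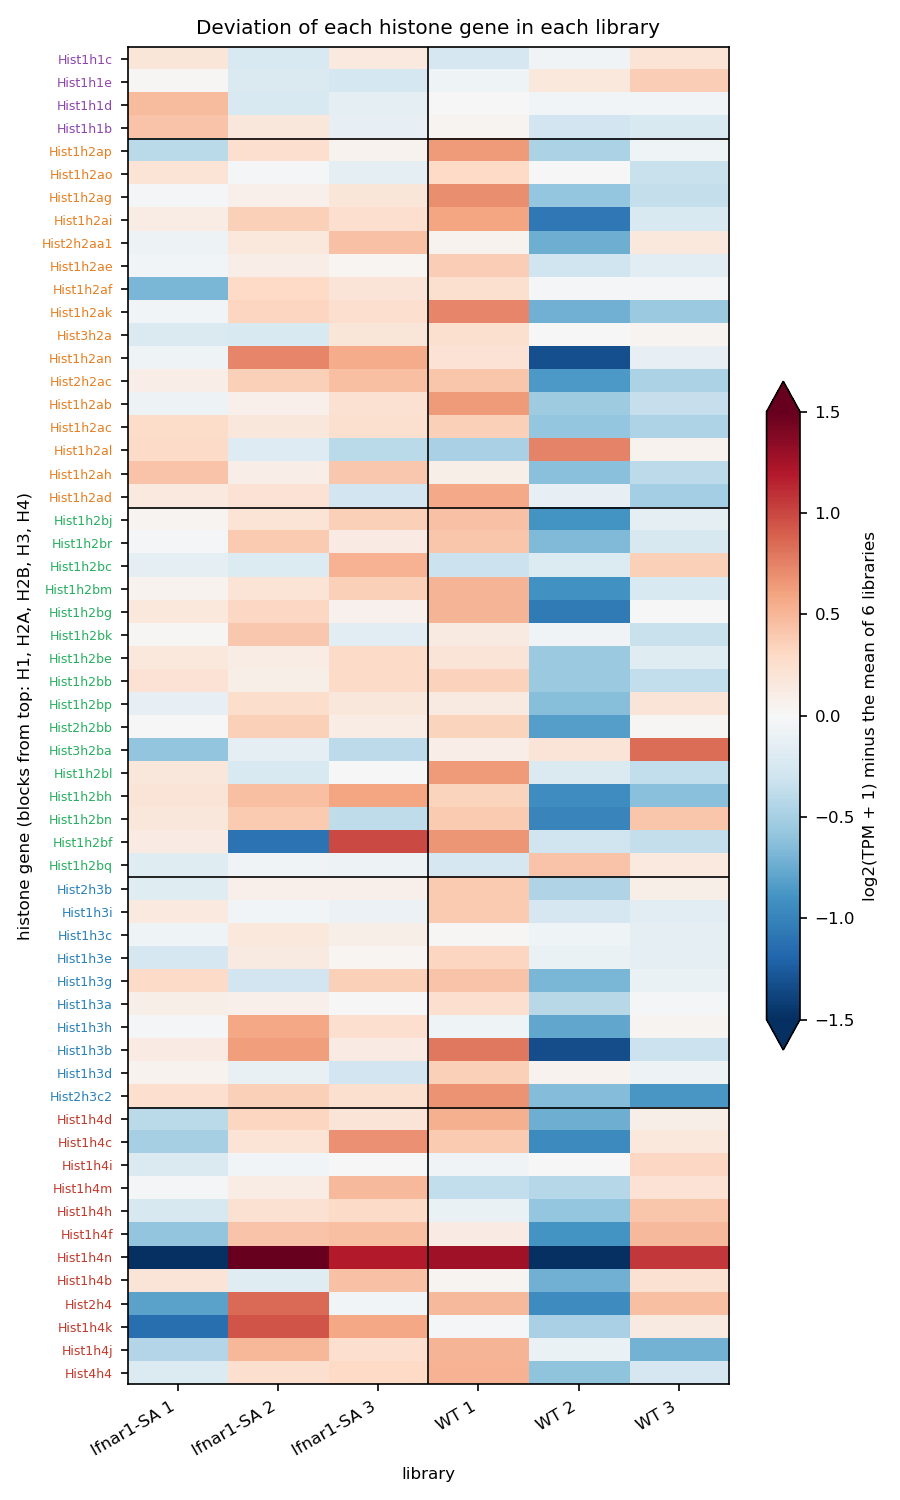
Deviation of log2(TPM + 1) of each of the 58 tested histone genes (rows, in blocks H1, H2A, H2B, H3 and H4 from the top, by falling level) from its own mean over 6 libraries (columns, Ifnar1-SA left of the vertical line and WT right of it); red is above and blue below the mean, and colours end at 1.5. The WT 2 column is mostly blue outside H1, the WT 1 column mostly red, and H4 rows are also blue in Ifnar1-SA 1.

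Genes that make, carry and remove histone mRNA and protein were described from lists made by function, beside the median of −0.06 over all genes. The lists were chosen with earlier results of these data known. Of the 137 genes tested in all lists, 1 was higher (Daxx) and 1 lower (Supt16) at an unadjusted p under 0.05, or 1.46%, against 3.12% of all genes, and 0 had an adjusted p under 0.05. Of 19 tested histone mRNA processing genes, 0 passed the adjusted threshold, 13 lay above 0 and 6 below, with a median log2 difference of 0.05. Slbp, which binds the stem-loop, had 87.7, 71.2 and 78.0 TPM in Ifnar1-SA, against 102, 79.1 and 73.3 TPM in WT. Npat, a coactivator of histone gene transcription and a substrate of cyclin E and CDK2, had 4.51, 3.44 and 3.56 TPM in Ifnar1-SA, against 4.07, 4.90 and 4.17 TPM in WT. Both overlapped between the genotypes, and neither had its lowest value in WT 2. Other genes of the list did: 4 of the 19 were lowest in WT 2, against 36 of 58 histone members. Among the Sm proteins shared by U7 and other small nuclear RNPs, Snrpe had 412, 632 and 602 TPM in Ifnar1-SA, against 642, 316 and 536 TPM in WT, and Snrpg had 364, 745 and 679 TPM, against 815, 303 and 589 TPM. Snrpf, with 237, 512 and 462 TPM in Ifnar1-SA against 653, 242 and 481 TPM in WT, was low in Ifnar1-SA 1 and WT 2 as well. These 3 genes were chosen after their values were seen. Of the other Sm genes on the list, Snrpd3 was also lowest in Ifnar1-SA 1 and WT 2 within each genotype. It had 655, 774 and 697 TPM in Ifnar1-SA, against 923, 525 and 644 TPM in WT. Snrpb went the other way, with 545, 406 and 399 TPM in Ifnar1-SA, against 558, 368 and 307 TPM in WT. Of the 12 histone mRNA decay genes 0 passed, with 5 above and 7 below 0 and a median of −0.02. Eri1, the exonuclease that trims the stem-loop, averaged 16.2 ± 2.37 TPM in Ifnar1-SA and 22.4 ± 3.90 TPM in WT (SD, n = 3 each), a log2 difference of −0.44 with a limma adjusted p of 0.9997.

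Of 23 histone chaperone and import genes 0 passed, with 12 above and 11 below 0 and a median log2 difference of 0.01. Supt16, a subunit of the FACT complex that moves H2A and H2B dimers, had 14.6, 11.9 and 13.9 TPM in Ifnar1-SA, against 23.2, 20.3 and 19.8 TPM in WT. The libraries did not overlap, and the log2 difference was −0.61 (SE 0.15, unadjusted p = 0.00446, limma adjusted p = 0.878). Daxx, a chaperone of the H3.3 variant, had 25.5, 16.3 and 23.0 TPM in Ifnar1-SA, against 15.02, 15.7 and 14.8 TPM in WT, also without overlap (log2 difference 0.46, SE 0.19, unadjusted p = 0.0455, limma adjusted p = 0.9997). Of the 14 replacement histones, which are made also outside S phase and mostly from polyadenylated mRNA, 10 were tested and 0 passed. Of those tested, 6 lay above and 4 below 0, with a median of 0.01. H2afz, the gene of H2A.Z, had 1003, 706 and 689.9 TPM in Ifnar1-SA, against 1021, 679 and 559 TPM in WT. H3f3b, a gene of H3.3, had 476, 507 and 488 TPM in Ifnar1-SA, against 578, 567 and 563 TPM in WT, a log2 difference of −0.22 (SE 0.13, limma adjusted p = 0.9997). The H3f3b libraries did not overlap and its WT values were close to each other.

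Most genes of the cell cycle had another order of libraries than the histones. Of 36 S phase and replication genes 0 passed, with 33 above and 3 below 0 and a median log2 difference of 0.12. Of 23 G2 and mitosis genes 0 passed, with 16 above and 7 below 0 and a median of 0.14. Mcm5, a subunit of the replicative helicase, had 69.8, 42.3 and 45.2 TPM in Ifnar1-SA, against 63.6, 46.2 and 39.0 TPM in WT. Mki67, a proliferation marker, had 11.3, 7.59 and 6.02 TPM in Ifnar1-SA, against 7.66, 8.45 and 5.33 TPM in WT. Ccne1, the cyclin E1 gene, had 37.2, 24.4 and 31.2 TPM in Ifnar1-SA, against 37.7, 19.6 and 19.9 TPM in WT. WT 2, lowest for 36 of 58 histone members, was lowest for Ccne1, Pcna and Cdk2 but for no other of the 36 S phase genes, and for 0 of the 23 G2 and mitosis genes. Cdk1, the mitotic kinase, had 75.2, 54.4 and 52.5 TPM in Ifnar1-SA, against 66.1, 50.1 and 36.7 TPM in WT. The mean deviation of the S phase list was 0.38, −0.11 and −0.10 in Ifnar1-SA and 0.29, −0.10 and −0.35 in WT, on the log2 scale. That of the 58 histone members was −0.09, 0.18 and 0.18 in Ifnar1-SA and 0.29, −0.51 and −0.06 in WT. Both were high in WT 1, but the S phase list was highest in Ifnar1-SA 1 and lowest in WT 3, where histones were close to their mean. A list of 34 RNAs without a poly(A) tail held small RNAs and the ribosomal RNA precursor Rn45s. Of these, 19 were in the table and 14 were tested. Among the tested ones 0 passed, with 10 above and 4 below 0 and a median of 0.26. Their mean deviation was highest in Ifnar1-SA 3, at 0.58. Rprl1, Rprl2, Rnu11, Rnu73b and Scarna2 were at 0 in some libraries, so this mean rests partly on values at 0.

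**Figure D5:**
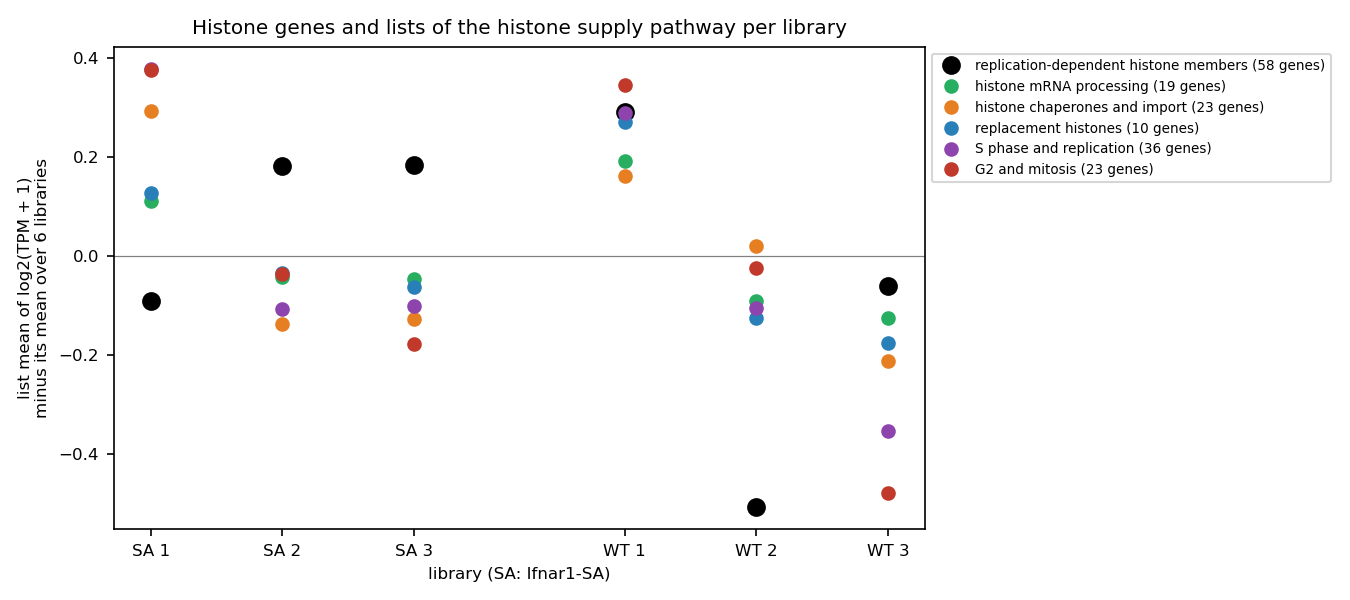
Mean of log2(TPM + 1) over the genes of a list in each library, minus its mean over the 6 libraries, for the histone genes (large black points) and 5 lists of the histone supply pathway and cell cycle (coloured points); Ifnar1-SA libraries are left of WT. The histone genes lie at −0.51 in WT 2, where the S phase list is at −0.10, and the S phase list is highest in Ifnar1-SA 1, at 0.38, where the histone genes are at −0.09.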

How the data were processed

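The authors deposited a single TPM table (24493 symbols, 6 libraries). Per the submitters' processing notes, Salmon was used with mm10 and GRCm38. Its version, annotation and read filters were not given in the sources used here. Deposited TPM sums to 1e+06 per library and keeps no depth, so the precision of single values is unknown and no count model was used. A gene that takes a large share lowers the TPM of all others.

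Groups came from the labels' genotype. The 12141 genes that averaged at least 1 TPM were tested as log2(TPM + 1) with limma 3.58.1 (R 4.3.3, intensity trend, two-sided, Benjamini-Hochberg, threshold 0.05, no replicate block), which understates changes of low genes; the fit was tested on simulated data. Members under the filter got exact permutation tests. Correlations of deviations between same-numbered libraries were −0.11, −0.11 and 0.15. With 3 libraries per genotype these cannot show whether such libraries shared an animal or a day, and the labels do not say. Other computing used Python 3.11.15 with pandas 2.3.3 and numpy 2.4.6.

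Members and lists were chosen with earlier results of these data known. Named members were the 3 of highest mean and the 1 of widest range per class, those with p under 0.05 or no overlap, clusters Hist3 and Hist4, and Hist1h1t, Hist1h2aa and Hist1h2ba. Hist1h2al, Hist1h2bq, Hist1h4k, Hist1h4m, H1f0, Pcna, Cdk2, the Snrp genes, Rn4.5s, Rps29 and Eif2s3y were added after their values were seen. Gene models, stem-loops and shared words of 31 bases came from GENCODE M21, and promoters from RefSeq (GRCm38.p6).

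Alternatives were the pseudocount, the filter on low values, scaling, empirical Bayes settings, library weights, a replicate block, removal of small RNA genes and leaving out libraries. The sum without Hist1h2ap and Hist1h2ao and all alternatives for the spread were added after seeing the data.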

Additional observations from a re-analysis of the deposited data

How the results depend on the processing

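No member passed the adjusted threshold in any of the 18 alternatives run (lowest adjusted p 0.193, without WT 1), and Hist3h2ba, Hist1h2ah and Hist1h2bh kept their signs in the 17 alternatives that tested them, with adjusted p of at least 0.257. The count of all genes past the threshold, 7 as reported, was 15 with a pseudocount of 0.1, 14 with 0.5, 1 with a mean of at least 5 TPM, 12 with robust empirical Bayes, 12 with array weights, 0 with a replicate block, 3 without small RNA genes, 0 without Ifnar1-SA 1 and WT 2, and 15 to 28 with 1 library left out. Members with an unadjusted p under 0.05, 3 as reported, numbered 0 with a mean of at least 5 TPM, 1 with median-of-ratios scaling, 1 with quantile normalization, 10 with array weights (8 higher, 2 lower in Ifnar1-SA), 6 without small RNA genes, and 1 to 17 with 1 library left out. The 17 were found without WT 1 (28.8%, against 6.96% of all genes), and 16 of them were higher in Ifnar1-SA. Without WT 2 the 1 member was Hist3h2ba (1.69%, against 2.03%), and likewise without Ifnar1-SA 3 (1.72%, against 1.69%). Without Ifnar1-SA 1 it was Hist1h4k (1.69%, against 4.45%). The cause of these moves was not tested. The split of all-gene calls was 2 higher and 5 lower as reported, 1 and 5 with median-of-ratios scaling and 1 and 6 with quantile normalization. Leaving out WT 2 turned the sign of 18 members. The median log2 difference of members was −0.02 to 0.35, the ratio of sums 0.883 to 1.19 and the median SD of members 0.27 to 0.56 over their alternatives. The sum without Hist1h2ap and Hist1h2ao, an alternative chosen after seeing the data, had a ratio of 1.11. WT 2 was the lowest library for 46 members with median-of-ratios scaling and for 35 without small RNA genes. With the replicate block 0 members passed the threshold. An unadjusted p under 0.05 was held by 3 (5.17%, against 3.29% of all genes), with Hist1h4m in place of Hist1h2bh. For Hist1h2bh the block gave an unadjusted p of 0.0734 and a limma adjusted p of 0.9995. Without depth, no lower limit of detection can be given.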
